A study of Mus musculus with 8 samples.

Results

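The clock output bZIP and DEC transcription factors examined here are Dbp, Tef, Hlf, Nfil3, Bhlhe40 and Bhlhe41. Members were the gene probes whose RefSeq transcript belongs to 1 of these 6 genes, and the rule found 8 such probes among 55681 on the array, 2 each for Dbp and Bhlhe41 and 1 each for the others. The genes were picked with the difference between genotypes in these arrays already known, so that difference is described below and not tested.

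White gonadal fat was profiled on 8 one-colour Agilent mouse arrays, 1 per sample, 4 from Rap1-/- mice and 4 from WT mice, all aged 10 weeks. Terf2ip encodes RAP1, a shelterin subunit with binding sites outside telomeres as well, and the study looked at this age for transcription ahead of obesity. The Rap1-/- mice carry a deletion in every tissue, made with a cre driven by the adenovirus EIIa promoter in the early embryo and bred out afterwards, and all 8 samples have a C57BL6/129SV background (90%:10%); the study describes the fat as that of young females. The sources used here do not give the time of day at which the fat was taken, which is a limit for genes with a daily rhythm.

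The circadian clock is a loop in which CLOCK and BMAL1 (encoded by Arntl) activate genes through E-box sequences, among them the Per and Cry genes whose proteins turn CLOCK and BMAL1 off again. The 6 members carry this rhythm to other genes or feed it back. DBP, TEF and HLF are the PAR bZIP activators, which bind D-box sequences, and NFIL3, also called E4BP4, is the repressor that binds the same D-boxes. BHLHE40 and BHLHE41, also called DEC1 and DEC2, are basic helix-loop-helix repressors that act at E-boxes, and in many cells they are also induced by low oxygen. In white fat, as in liver, these genes are known to cycle strongly over the day, with Dbp among those of widest swing and Arntl in the opposite phase.

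Promoter windows from RefSeq (build GRCm38.p6, 250 bases before to 50 after each transcription start) were matched by gene symbol to 5 of the 6 members, with 2 windows for Tef; Bhlhe40 was not matched. The windows of Tef and Bhlhe41 are shown because they hold the canonical E-box CACGTG, which is in capitals, and that of Dbp because its signal moved with the clock genes below. The first Tef window is chr15:81802423-81802722 and the second chr15:81811164-81811463, both on the plus strand, that of Bhlhe41 is chr6:145865371-145865670 on the minus strand, and that of Dbp is chr7:45704997-45705296 on the plus strand; each is printed 5′ to 3′ in the direction of transcription.
Tef, first start: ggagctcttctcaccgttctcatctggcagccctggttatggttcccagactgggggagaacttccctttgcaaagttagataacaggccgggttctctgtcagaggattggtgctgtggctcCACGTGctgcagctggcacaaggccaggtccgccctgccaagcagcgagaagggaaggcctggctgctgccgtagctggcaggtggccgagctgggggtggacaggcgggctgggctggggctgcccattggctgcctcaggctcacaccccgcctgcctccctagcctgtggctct
Tef, second start: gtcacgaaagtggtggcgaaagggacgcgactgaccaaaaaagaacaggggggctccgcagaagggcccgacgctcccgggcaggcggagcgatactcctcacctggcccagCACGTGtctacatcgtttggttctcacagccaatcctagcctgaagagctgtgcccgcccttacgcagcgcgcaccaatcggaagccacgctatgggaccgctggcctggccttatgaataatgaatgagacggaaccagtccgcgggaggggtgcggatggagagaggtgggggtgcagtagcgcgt
Bhlhe41: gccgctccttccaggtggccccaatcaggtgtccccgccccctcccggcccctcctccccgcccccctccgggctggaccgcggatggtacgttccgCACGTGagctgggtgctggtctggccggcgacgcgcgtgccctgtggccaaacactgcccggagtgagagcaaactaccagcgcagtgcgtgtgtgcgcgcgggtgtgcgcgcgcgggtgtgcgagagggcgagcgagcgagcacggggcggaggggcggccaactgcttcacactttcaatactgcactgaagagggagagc
Dbp: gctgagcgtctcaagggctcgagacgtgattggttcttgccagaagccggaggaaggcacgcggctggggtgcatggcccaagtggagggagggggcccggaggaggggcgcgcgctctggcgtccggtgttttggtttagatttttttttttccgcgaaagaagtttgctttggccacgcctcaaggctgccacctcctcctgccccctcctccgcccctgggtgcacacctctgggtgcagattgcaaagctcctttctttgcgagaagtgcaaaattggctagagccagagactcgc

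The E-box began at -127 from the first Tef start, at -138 from the second and at -153 from the Bhlhe41 start. It was matched in 0 windows of Dbp, Hlf and Nfil3. Of 32851 promoter windows of the same length, 7.15% held CACGTG. Also searched on both strands were the E-box variant CACGTT (4.68% of all windows), the D-boxes TTATGTAA (0.938%) and TTACGTAA (0.119%) and the ROR response element (0.219%), and none of these 4 motifs occurred in the 6 member windows, so no matches overlapped. A match describes the letters of the window and does not show a bound site.

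The scale used throughout is the log2 processed signal of a probe minus the 75th percentile of all gene spots on its array, so that 0 is the 75th percentile; values of different probes are not compared as levels. That percentile was 302 to 497 intensity units, 59.7% to 65.2% of spots were well above background by the scanner's call, and 0 spots were saturated. On the Terf2ip probe A_52_P381806 the Rap1-/- arrays read -7.58 to -7.13, with 0 of 4 above background by that call, against 0.06 to 0.49 on the WT arrays. The other Terf2ip probe, A_55_P2094079, which stood for the gene in the fit, ran the other way, with 0.84 to 1.06 on the Rap1-/- arrays and -1.49 to -1.27 on the WT arrays. Both genotypes were on both slides, but Rap1-/- samples held slide positions 3 and 4 and WT samples positions 1 and 2, so position and genotype cannot be told apart. All 10 adipocyte markers were well above background on all 8 arrays, as were all 8 member probes. The number of arrays limits the precision of every value, and since the labels do not say that each sample is 1 animal, p-values measure the spread between these samples, which may be in part technical.

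On average the PAR bZIP activators and the DEC repressors read lower in Rap1-/- fat than in WT fat, by 1.25-fold for Hlf up to 1.90-fold for Bhlhe40 with 1 probe per gene (2.26-fold on the second Bhlhe41 probe), while the mean of Nfil3 was nearly the same in both. This mean difference was uneven among the Rap1-/- samples. Rap1-/- arrays 1 and 4 were low for Dbp, Tef, Hlf, Bhlhe40 and Bhlhe41, whereas Rap1-/- arrays 2 and 3 lay near or within the WT range. On all 8 probes the genotypes overlapped, whereas they did not for 3.26% of all features (2.36% lower in Rap1-/-), and 0 of 6 members passed an adjusted p of 0.05 in limma (Benjamini-Hochberg), against 0.00399% of the 25064 genes or features tested (1 gene, Terf2ip itself, through the probe that was higher in Rap1-/-). At an unadjusted p under 0.05 these counts were 0 of 6 members and 4.98% of features. Because the genes were chosen on this contrast, nothing is read from these counts.

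**Figure D1:**
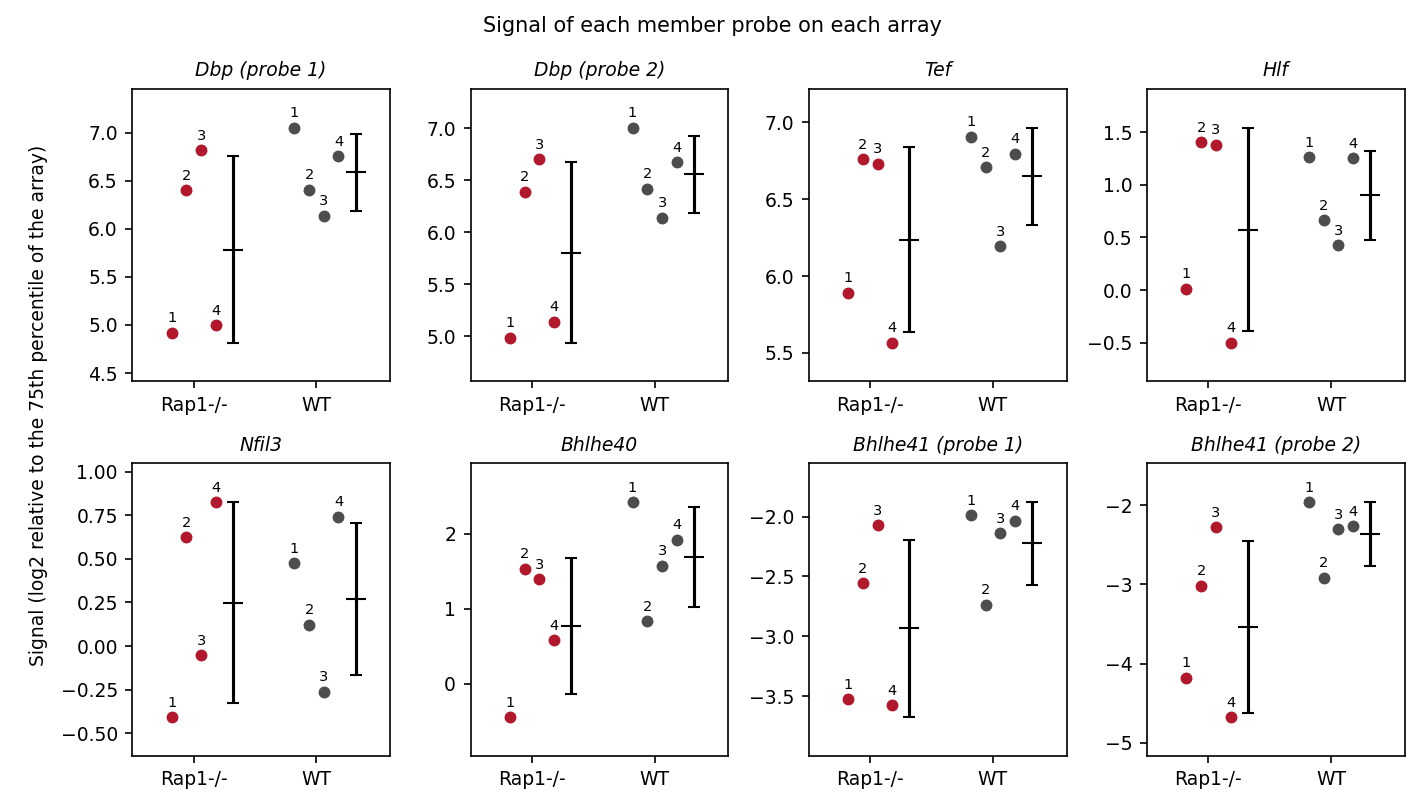
Signal of each of the 8 member probes on each array, on the log2 scale relative to the 75th percentile of the array. Numbered points are single arrays, with Rap1-/- in red and WT in grey, and bars give the mean and SD of 4 arrays; except for Nfil3, Rap1-/- arrays 1 and 4 are the lowest Rap1-/- points, and on all 8 probes the genotypes overlap.

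Dbp, the PAR bZIP factor most widely used as a marker of clock output, read 4.92, 6.40, 6.82 and 5.0 in Rap1-/- samples 1 to 4, against 7.05, 6.41, 6.14 and 6.75 in WT samples 1 to 4 (probe A_55_P2032079). Rap1-/- samples 1 and 4 were below every WT sample, sample 2 was level with WT sample 2, and sample 3 was above all but WT sample 1. Rap1-/- samples averaged 5.79 ± 0.97 and WT samples 6.59 ± 0.40 (SD, n = 4 each), a log2 difference of -0.80 ± 0.45 (SE of the fit across all genes), or a 1.74-fold lower mean signal. The second probe, A_55_P2032081, read 4.98, 6.39, 6.70 and 5.14 in Rap1-/- samples and 7.01, 6.42, 6.14 and 6.67 in WT samples, with a log2 difference of -0.76 ± 0.42 (SE of the fit across all probes, which gave 0.46 for the first). Both Dbp probes thus gave the same picture, with the same 2 samples low. In raw intensity the first probe ran between 13890 and 44280 units in Rap1-/- and between 21270 and 49800 units in WT, far from the dim end of the array.

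Tef, the thyrotroph embryonic factor, which shares the D-box with Dbp, read 5.89, 6.76, 6.73 and 5.57 in Rap1-/- samples and 6.90, 6.71, 6.19 and 6.79 in WT samples. Again Rap1-/- samples 1 and 4 were below all WT samples, and Rap1-/- samples 2 and 3 lay inside the WT range. The log2 difference was -0.41 ± 0.30 (SE), a 1.33-fold lower mean signal in Rap1-/-.

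Hlf, the hepatic leukemia factor and the third PAR bZIP gene, read 0.01, 1.41, 1.38 and -0.50 in Rap1-/- samples, against 1.26, 0.66, 0.43 and 1.25 in WT samples. Here Rap1-/- samples spread to both sides, since samples 2 and 3 were above all WT samples and samples 1 and 4 below all of them. Rap1-/- samples had an SD of 0.97 and WT samples one of 0.42 (n = 4 each), and the log2 difference of -0.33 ± 0.46 (SE) was smaller than its own error.

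Nfil3, the repressor at the same D-boxes, did not share this pattern. It read -0.41, 0.62, -0.05 and 0.83 in Rap1-/- samples and 0.47, 0.12, -0.26 and 0.74 in WT samples. Rap1-/- sample 4, among the lowest for the PAR bZIP activators, was the highest of the 8 for Nfil3, and sample 1 was the lowest. Rap1-/- samples averaged 0.25 ± 0.58 and WT samples 0.27 ± 0.44 (SD, n = 4 each), a log2 difference of -0.02 ± 0.32 (SE).

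Bhlhe40, which encodes DEC1, read -0.44, 1.53, 1.40 and 0.58 in Rap1-/- samples and 2.43, 0.83, 1.57 and 1.92 in WT samples. Samples 1 and 4 of Rap1-/- were below every WT sample, and 4 of 4 Rap1-/- samples were below the WT mean of 1.69 ± 0.67 (SD, n = 4). The log2 difference of -0.92 ± 0.49 (SE), or 1.90-fold, was the largest of the 6 members in the fit that took 1 probe per gene; with the mean of probes it was -0.92, against -0.94 for Bhlhe41.

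Bhlhe41, which encodes DEC2, read -3.53, -2.56, -2.07 and -3.58 in Rap1-/- samples and -1.99, -2.74, -2.14 and -2.03 in WT samples on probe A_51_P451176. The second probe, A_55_P2133001, read -4.18, -3.01, -2.28 and -4.67 in Rap1-/- samples and -1.96, -2.92, -2.30 and -2.26 in WT samples. On the first probe Rap1-/- samples 1 and 4 were below all WT samples, and on the second sample 2 was as well. The log2 differences were -0.71 ± 0.37 and -1.18 ± 0.51 (SE of the fit across all probes), so the 2 probes differed in size but not in direction. This was the dimmest member, with intensities of the first probe between 36.5 and 93.2 units in Rap1-/- and between 64.7 and 103 units in WT, although it was called well above background on all 8 arrays.

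Rap1-/- samples 1 and 4 were the lowest of their genotype for every member but Nfil3. Leaving out both was therefore bound to raise those Rap1-/- means and cannot test the difference. With both left out, a setting chosen after the data were seen, the log2 difference was 0.02 ± 0.28 for Dbp, 0.09 ± 0.21 for Tef, 0.49 ± 0.27 for Hlf, 0.02 ± 0.32 for Nfil3, -0.22 ± 0.41 for Bhlhe40 and -0.09 ± 0.26 for Bhlhe41 (SE). Only the DEC genes kept a negative sign, within their errors. Leaving out 1 array at a time gave -1.15 to -0.51 for Dbp, -0.59 to -0.19 for Tef, -1.21 to -0.52 for Bhlhe40 and -1.0 to -0.50 for Bhlhe41. For Hlf the range was -0.60 to 0.03, positive without Rap1-/- sample 4, and for Nfil3 it was -0.21 to 0.20. Each slide held 1 of the 2 low Rap1-/- arrays, and within slides 1 and 2 the log2 difference was -1.07 and -0.54 for Dbp, -0.48 and -0.35 for Tef, -0.25 and -0.40 for Hlf, -1.09 and -0.76 for Bhlhe40 and -0.68 and -0.74 for Bhlhe41. For Nfil3 it was -0.19 and 0.15. With 2 arrays per genotype and slide, these are values without a test.

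**Figure D2:**
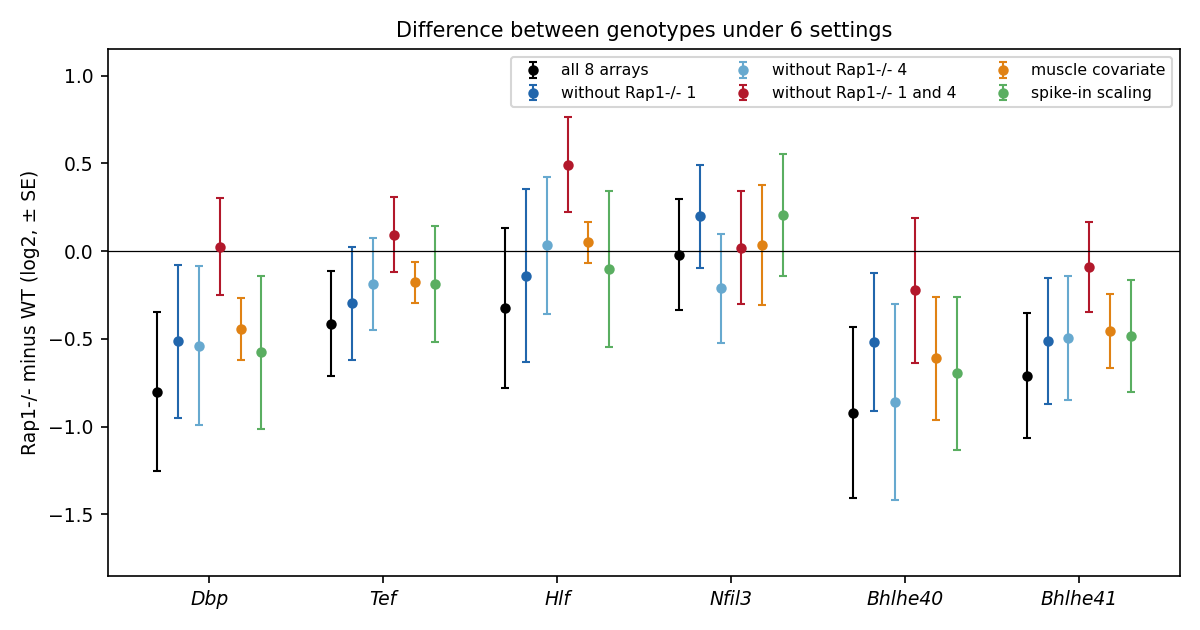
Log2 difference, Rap1-/- minus WT, of each member (y axis) with its SE, for all 8 arrays, without Rap1-/- array 1, without array 4, without both, with the skeletal muscle mean as a covariate, and after scaling to the spike-in spots. Dbp is at -0.80 with all arrays and at 0.02 without Rap1-/- arrays 1 and 4.

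Skeletal muscle transcripts moved with the same arrays. All 16 muscle markers listed were tested, and 15 had a lower mean in Rap1-/-, against 59.9% of all features. Their median log2 difference was -1.45, and 0 passed in limma, adjusted or not, at 0.05. The log2 of their summed signal ran between 4.72 and 10.76 in Rap1-/- and between 6.93 and 9.5 in WT. As a mean deviation from the 8-array average, they stood at -3.67, 3.21, 2.12 and -4.69 in Rap1-/- samples 1 to 4 and at 1.81, 0.12, -0.75 and 1.85 in WT samples 1 to 4. Of the 16, 14 were well above background on Rap1-/- array 1, 13 on Rap1-/- array 4 and 16 on each of the others; the myosin genes Myh4 and Mylpf, named after their values were seen, were below that call on both low arrays, and Ckm on array 4. In bulk tissue, fewer cells of a type and less RNA per cell cannot be told apart.

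With the muscle mean as a covariate, the log2 difference between Rap1-/- and WT was -0.44 ± 0.18 for Dbp, -0.18 ± 0.12 for Tef, 0.05 ± 0.12 for Hlf, 0.03 ± 0.34 for Nfil3, -0.61 ± 0.35 for Bhlhe40 and -0.46 ± 0.21 for Bhlhe41 (SE). The sign was negative for Dbp, Tef, Bhlhe40 and Bhlhe41 and positive for Hlf and Nfil3. As the genes were chosen on this contrast, these are values without a test. Whether muscle in the samples had a part in the low values was not tested. For the other markers, the median log2 difference was -0.27 over the 10 adipocyte markers, 0.63 over 10 mesothelial, 0.23 over 11 fibroblast, 0.17 over 11 macrophage, -0.04 over 9 endothelial, 0.00 over 9 lymphocyte and -0.19 over 7 brown fat markers, against -0.04 over all features tested. In limma at an unadjusted p under 0.05, 5 of 10 adipocyte markers were lower in Rap1-/- and 4 of 10 mesothelial markers higher. Over all features this share was 4.98% in either direction. Of these markers 0 passed after adjustment, and 10 of 10 mesothelial means were higher. Their part in the members' values was not tested. Of the ovary and oviduct markers 3 of 10 passed the brightness filter, with a median of -0.04.

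The spread among samples of 1 genotype was wide for every member. It does not use the difference between genotype means, but it is not independent of how the genes were chosen. Except for Nfil3, the low Rap1-/- arrays behind the mean difference also enter this spread, so the percentiles are given as a description. The pooled within-genotype SD was 0.74 for Dbp, 0.48 for Tef, 0.75 for Hlf, 0.51 for Nfil3, 0.80 for Bhlhe40 and 0.58 for Bhlhe41 (log2 units). These stood at the 96.4, 88.8, 96.5, 90.5, 97.1 and 93.1 percentiles of all 25064 features in the same order. For each member the SD was larger in Rap1-/- than in WT. It was 0.97 against 0.40 for Dbp, 0.60 against 0.31 for Tef and 0.97 against 0.42 for Hlf. For Nfil3 it was 0.58 against 0.44, for Bhlhe40 0.91 against 0.67 and for Bhlhe41 0.74 against 0.35 (1 probe per gene). The share of all features with a larger SD in Rap1-/- was not computed, so this is not read as particular to the members. Outside the members, the SD was also larger in Rap1-/- for the muscle marker Ckm (4.92 against 1.54) and the clock gene Ciart (1.85 against 1.01). It was smaller for the mesothelial marker Krt8 (0.10 against 0.57). Co-variation was then examined after each genotype's mean was subtracted, over the 8 arrays, with 15 pairs of members. The test was exact two-sided permutation of arrays within genotype (every order, smallest possible p of 0.00174). The low Rap1-/- arrays enter these values too, so the p-values for pairs, and those with muscle and clock genes below, are descriptive.

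Among the PAR bZIP genes, Tef and Hlf tracked each other most closely, with Pearson's r of 0.97 and Spearman's rho of 0.98 (exact permutation p = 0.00174 and 0.00347, Benjamini-Hochberg adjusted over 15 pairs 0.0260 and 0.0521). This was the 1 pair of 15 to pass on r, and 0 passed on rho. Without Rap1-/- arrays 1 and 4, the farthest from the median of Tef, r was 0.87 over 6 arrays. Dbp gave r of 0.94 with Tef (rho 0.90, exact permutation p = 0.0243 and 0.0521) and 0.95 with Hlf (rho 0.95, exact permutation p = 0.0260 and 0.0486), each with an adjusted p of 0.130 on r and 0.0926 on rho, and without the same 2 arrays r was 0.81 and 0.87. The 3 activators thus kept a high r on the arrays that remained, although those 2 arrays carried much of the range.

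The DEC genes followed with weaker values. Bhlhe40 and Bhlhe41 had r of 0.83 and rho of 0.86 (exact permutation p = 0.0417 and 0.0556, adjusted 0.130 and 0.0926), and r was 0.87 without Rap1-/- array 1 and WT array 1, the farthest from the Bhlhe40 median. Dbp had r of 0.82 with Bhlhe40 and 0.91 with Bhlhe41 (rho 0.86 and 0.95, exact permutation p of r = 0.0434 and 0.0538, adjusted 0.130 and 0.135), which without Rap1-/- arrays 1 and 4 became 0.64 and 0.57. For Tef with Bhlhe41 r was 0.77 (rho 0.90, adjusted p by exact permutation 0.234 and 0.0926) and 0.03 without those arrays, so that relation rested on them. Tef with Bhlhe40 gave r of 0.64 (rho 0.79), and Hlf gave 0.73 with Bhlhe40 and 0.87 with Bhlhe41 (rho 0.86 and 0.95), with adjusted p of r between 0.172 and 0.234 by exact permutation; without Rap1-/- arrays 1 and 4 these were 0.36, 0.72 and 0.45.

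Nfil3 stood apart from the others in these values, with r between 0.04 and 0.51 and rho between -0.02 and 0.36 over its 5 pairs and adjusted p of r between 0.350 and 0.913 by exact permutation. Its r was changed by single arrays. Without Rap1-/- array 4 it was 0.81 with Tef and 0.83 with Hlf, and without arrays 1 and 4 of Rap1-/- it was 0.75 and 0.82. Whether Nfil3 differs from the other members in co-variation was not tested.

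**Figure D3:**
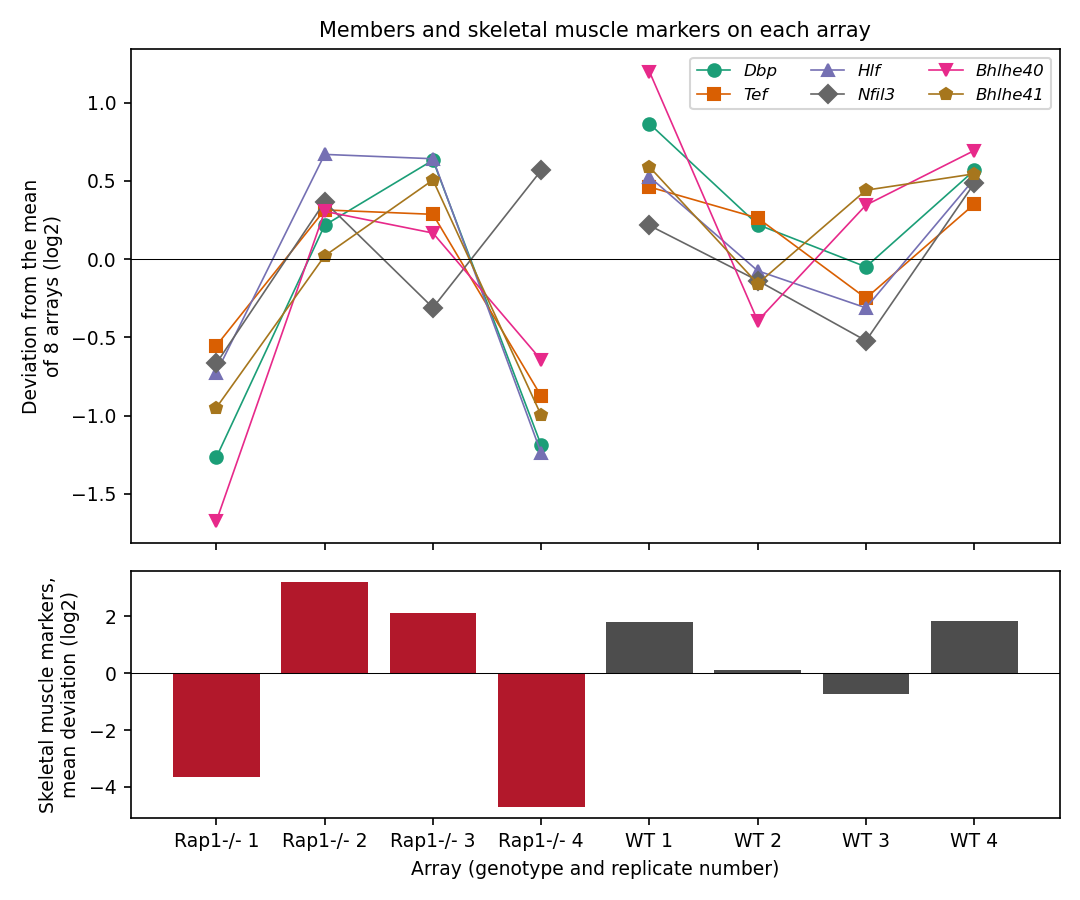
Upper panel, deviation of each member from its mean over the 8 arrays (log2), with lines that only join the points of 1 gene within a genotype; lower panel, mean deviation of the 16 skeletal muscle markers on the same arrays, with Rap1-/- in red and WT in grey. Members other than Nfil3 are lowest on Rap1-/- arrays 1 and 4, where the muscle markers stand at -3.67 and -4.69.

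The muscle markers also co-varied with the members within genotypes. Pearson's r with their mean was 0.95 for Dbp, 0.96 for Tef, 0.98 for Hlf, 0.76 for Bhlhe40, 0.86 for Bhlhe41 and 0.21 for Nfil3, with rho of 0.93, 0.95, 0.98, 0.81, 0.93 and 0.14. Exact permutation p of r was 0.00347 for both Tef and Hlf and 0.0417 for Dbp, and, adjusted over a family of 102 relations of members with muscle and clock genes, 0.0590, 0.0590 and 0.129. Without Rap1-/- arrays 1 and 4, r was 0.95 for Hlf, 0.85 for Tef, 0.70 for Dbp, 0.66 for Bhlhe40 and 0.24 for Bhlhe41, while that of Nfil3 was 0.95. After the muscle mean was regressed out, r was lower for several pairs. It was 0.57 for Tef and Hlf, 0.30 for Dbp and Tef, 0.35 for Dbp and Hlf, 0.54 for Bhlhe40 and Bhlhe41, and -0.49 for Tef and Bhlhe40. For Nfil3 and Bhlhe40 it was higher, at 0.55 against 0.51 before. These values are given without a test.

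Of the core clock loop, 16 of 18 genes were tested, and Npas2 and Cry1 were too dim. In limma 0 of 16 passed an adjusted p of 0.05 in either direction. Of the 16, 1, Fbxl21, had an unadjusted limma p under 0.05, against 4.98% of all features, with a higher reading in Rap1-/-. Its log2 difference was 0.68 and the genotypes did not overlap. It was bright enough on 4 of 4 Rap1-/- but on 3 of 4 WT arrays. A second, dimmer Fbxl21 probe, bright enough on 1 of 4 Rap1-/- and 0 of 4 WT arrays, gave 0.29, and on it the genotypes overlapped. Non-overlapping higher readings were seen in 0.898% of all features. The mean was lower in Rap1-/- for 12 and higher for 4, with a median log2 difference of -0.15, against -0.04 and 59.9% lower over all features. The members had a median of -0.56.

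In single arrays, the clock genes were ordered in step with Dbp. Ciart, a repressor of CLOCK and BMAL1 that cycles with Dbp, read -4.73, -1.51, -0.94 and -3.99 in Rap1-/- samples 1 to 4, against -0.33, -1.89, -2.67 and -1.08 in WT samples 1 to 4. Arntl, which encodes BMAL1, read -0.72, -2.92, -3.23 and -1.06 in Rap1-/- samples and -3.63, -1.96, -1.59 and -3.89 in WT samples. Clock, which encodes its partner, read 0.65, 0.00, -0.16 and 0.61 in Rap1-/- samples and -0.03, 0.12, 0.35 and 0.07 in WT samples. Rap1-/- samples 1 and 4, low for Dbp and Ciart, were the highest of the 8 for Arntl and Clock, and among the WT samples the 2 with the highest Dbp had the lowest Arntl and Clock.

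Over the 8 arrays with genotype means subtracted, Dbp had r of 0.99 with Ciart and -0.99 with Clock (rho 1.0 and -1.0, exact permutation p of r = 0.00347 and 0.00174, adjusted 0.0590 for both). Without Rap1-/- arrays 1 and 4 these were 0.98 and -0.95, and with the muscle mean regressed out over all 8 arrays they were 0.91 and -0.92. Dbp had r of -0.91 with Arntl (rho -0.90, exact permutation p = 0.0104, adjusted 0.0826), 0.94 with Nr1d2, which encodes REV-ERB beta, 0.90 with Per3, 0.87 with Per2 and 0.79 with Per1 (rho 0.93, 0.95, 0.90 and 0.83 in this order, adjusted p of r between 0.0826 and 0.118 by exact permutation). With Nr1d1, which encodes REV-ERB alpha and has 1 probe on the array, r was -0.31 (rho -0.31, adjusted p by exact permutation 0.741). After the muscle mean was regressed out, r of Dbp was -0.54 with Arntl, 0.39 with Nr1d2, 0.37 with Per3 and 0.35 with Per2. It was then 0.59 with Per1 and 0.65 with Nr1d1, given without a test. Tef and Hlf gave r of 0.99 and 0.98 with Nr1d2 (rho 0.98 and 0.95, exact permutation p = 0.00347 and 0.00521, adjusted 0.0590 each), and Bhlhe41 gave 0.86 with Rora (rho 0.86, exact permutation p = 0.00521, adjusted 0.0590). With the muscle mean removed, r in the same order was 0.92, 0.81 and 0.59. With Csnk1e, another of the core clock genes listed, Tef and Hlf gave r of 0.86 and 0.81 (rho 0.83 and 0.79, exact permutation p of r = 0.00521, adjusted 0.0590 for both). After removal of the muscle mean these r were 0.89 and 0.82. Of the 102 relations, 0 passed after adjustment, and 35 had an unadjusted p under 0.05, 32 with clock genes and 3 with the muscle mean. These 102 relations were added after the data were seen.

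**Figure D4:**
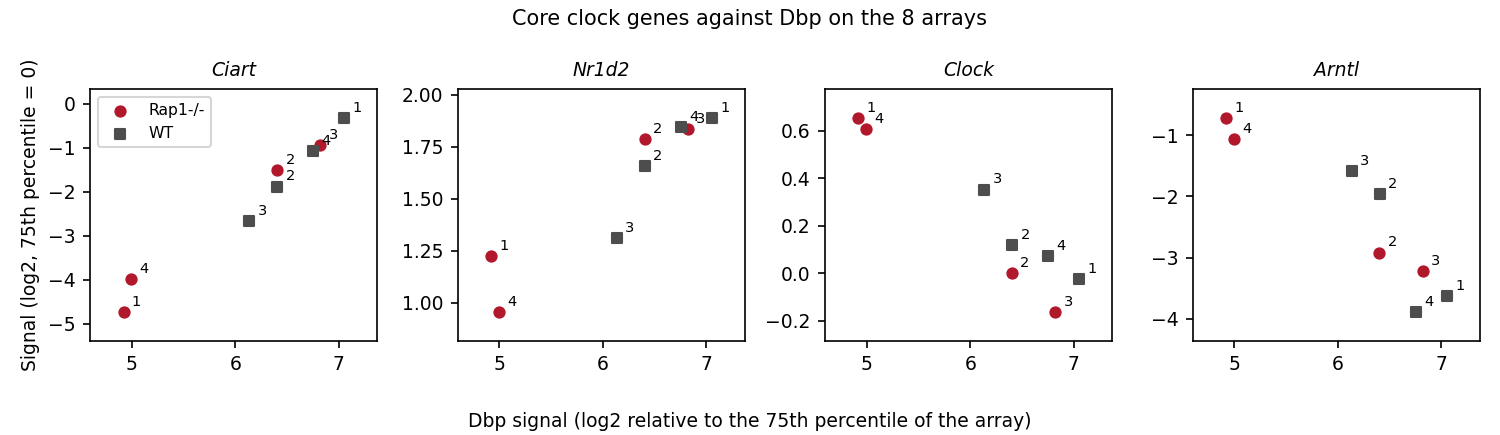
Signal of Ciart, Nr1d2, Clock and Arntl (y axes) against that of Dbp (x axes) on each array, both log2 relative to the 75th percentile of the array, with Rap1-/- as red circles and WT as grey squares, numbered by replicate. Rap1-/- arrays 1 and 4 lie at the low end of Dbp, at 4.92 and 5.0, with low Ciart and Nr1d2 and high Clock and Arntl.

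Genes listed as outputs of the clock or targets of PAR bZIP factors were all tested, 12 of 12. In limma 0 passed an adjusted p of 0.05. The mean was lower in Rap1-/- for 10 of 12, against 59.9% of all features, with a median log2 difference of -0.15. Unadjusted, 2 had a limma p under 0.05, against 4.98% of all features, and both were lower in Rap1-/-. These 2 were Por, the reductase that supplies electrons to cytochrome P450 enzymes and a known PAR bZIP target in liver (-0.36 ± 0.15, SE), and Lipe, the hormone-sensitive lipase of fat (-0.27 ± 0.11), which is also among the adipocyte markers. Gys2, the glycogen synthase of liver and fat, differed by -0.66 ± 0.48. Of the 12 hypoxia targets listed because the DEC genes are induced by low oxygen, 0 were called in limma, 0 had an unadjusted p under 0.05, 7 had a lower mean in Rap1-/-, and the median log2 difference was -0.01.

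Among 14923 other tested genes with a symbol, those with the pattern most like each member over the 8 arrays, genotype means subtracted, were listed by r as a description. Values of r picked as the extremes of so many genes on 8 arrays do not by themselves show a relation, and none was tested here. For Dbp the genes most like it were Ciart (0.99), Epop (0.98) and Cpeb1 (0.98), and on the opposite side Clock (-0.99), Sphk2 (-0.99) and Creb3l1 (-0.97). For Tef they were Nr1d2 (0.99), Perm1 (0.98) and Xirp2 (0.98), and opposite Mcm7 (-0.97), Plgrkt (-0.97) and Gtf3c5 (-0.96). For Hlf they were Tpm1, Xirp2 and Tnnt3 (0.99 each), and opposite Mcm7 (-0.98), Tecpr1 (-0.98) and Rasl11a (-0.97). Of the 6 genes listed for Dbp, 2 were core clock genes, Ciart and Clock, and Tpm1, Xirp2 and Tnnt3 are known from striated muscle fibres.

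For Nfil3 the nearest were Trmt61a (0.99), Hnrnpab (0.98) and Lactb (0.98), with Slc50a1 (-0.98), Dclre1c (-0.97) and Ago4 (-0.97) opposite. For Bhlhe40 they were Ddo (0.99), Stard7 (0.98) and Gys1 (0.98), the last the muscle-type glycogen synthase, with Zc3h7a, Tm6sf1 and Mettl21a opposite (-0.98 each). For Bhlhe41 they were Aspdh (0.98), Slf2 (0.97) and Krt28 (0.96), with Mansc1, Isg20l2 and Arl16 opposite (-0.97 each). No core clock gene was among the 6 listed for Hlf, Nfil3, Bhlhe40 or Bhlhe41.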

How the data were processed

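Total RNA from white gonadal fat, in 4 Rap1-/- and 4 WT samples, was put on one-colour Agilent mouse arrays. Images were read, per the file headers, with Feature Extraction 10.7.3.1 on a design built on mm9, and the deposited scanner files hold linear intensity per spot, background-corrected as the processed signal but not normalised between arrays. A deposited table of values, in log2 units, has scale and normalisation not stated by the authors and served only as an alternative. The scanner flags, deposited with these files, mark spots as bright enough, saturated or outlying.

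Of 62976 spots, 3671 were controls. From the log2 processed signal of every spot the 75th percentile over the gene spots of its array was subtracted, and spots of 1 probe were averaged; 13 of 55681 probes lacked a value. Those called well above background on 4 or more of the 8 arrays were kept (33982). The files hold no gene symbols, so probes were named through RefSeq accessions in a GRCm38.p6 table (26056 probes, 46.8%), and others were tested by accession. The probe of highest mean stood for a gene, which gave 25064 features. limma 3.58.1 (lmFit, eBayes) in R 4.3.3 compared genotypes without covariates, with Benjamini-Hochberg adjustment at 0.05. Co-variation used exact permutation within genotype. Scripts were tested on simulated data. Python 3.11.15 with matplotlib 3.10.9 drew the figures.

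Members, gene lists and tests were chosen with earlier results of these data known. Named were all members, core clock genes, up to 4 genes of smallest p per other list, and the 3 genes most like and the 3 most unlike each member. Alternatives covered background correction (normexp, offset 50, on the median spot signal in place of the planned mean signal, which was not used here), normalisation, spike-in scaling, filters, probe choice, slide and replicate blocks, the variance model, a muscle covariate and leaving out each array. Replicate numbers did not pair the samples: deviations of same-numbered samples correlated at -0.22, -0.13, -0.13 and -0.16. Leaving out Rap1-/- samples 1 and 4 together, removing the muscle mean and relating members to clock genes were added after the data were seen.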

Additional observations from a re-analysis of the deposited data

How the results depend on the processing

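Under every setting run, 0 of 6 members were called. The log2 differences ranged over these settings, single arrays left out aside, from -1.07 to -0.44 for Dbp, -0.48 to -0.18 for Tef, -0.40 to 0.05 for Hlf, -0.19 to 0.21 for Nfil3, -1.09 to -0.61 for Bhlhe40 and -0.94 to -0.33 for Bhlhe41. Leaving out single arrays gave -1.15 to -0.51 for Dbp, -0.59 to -0.19 for Tef, -0.60 to 0.03 for Hlf, -0.21 to 0.20 for Nfil3, -1.21 to -0.52 for Bhlhe40 and -1.0 to -0.50 for Bhlhe41. Without Rap1-/- arrays 1 and 4 together the values were 0.0237 for Dbp, 0.0942 for Tef, 0.492 for Hlf and -0.0911 for Bhlhe41. Scaling to the spike-in spots moved the median of all features to 0.19, against -0.04, and that of the core clock genes to 0.0793; relative to that shift Dbp (-0.58), Tef (-0.19), Hlf (-0.10), Bhlhe40 (-0.70) and Bhlhe41 (-0.48) were lower in Rap1-/- and Nfil3 (0.21) was level. Over all features, 2 genes were called after normexp, in the deposited table and with a trended robust variance, and 0 within slide 1 or slide 2, where the cause was not tested. With replicate number as a block, 1 gene was called and no member's call changed.

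Of the 15 pairs, 0 passed after normexp (Tef with Hlf, adjusted p by exact permutation 0.0781), quantile normalisation (0.0990), median scaling (0.0955) or in the deposited table (0.0781), while its r stayed between 0.96 and 0.98 in these settings; after spike-in scaling it was 0.0521, and Dbp with Bhlhe41 passed at 0.0260. The 4 arrays per genotype limit all of these values, and signals of the dimmest member, Bhlhe41, were nearest to background.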
